A study of Homo sapiens with 40 samples.

Results

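A set of 10 genes of the BCL2 family were followed through all 24 RNA-seq libraries of the series. They were chosen by gene symbol: the survival genes BCL2, BCL2L1, MCL1 and BCL2A1, the BH3-only genes BCL2L11, BMF, BIK, BBC3 and PMAIP1, and the effector BAX. All 10 were found among the 60708 genes of the count files. The libraries form 8 groups of 3, and the labels call the libraries of a group biological replicates. MI-spheres are 3D cultures of MCF-10A, an immortalized and non-malignant human breast epithelial line, and MII-spheres are 3D cultures of its HRAS-transformed derivative MCF-10AneoT. Both were left unstimulated (MI Ctrl and MII Ctrl) or received TGF-beta1 at 2.5 ng/ml for 16 h (MI TGFβ and MII TGFβ). The other 12 libraries are from MDA-MB-231, a triple-negative breast cancer line grown as a 2D monolayer: unedited cells (WT), cells labelled SLUG KO that were edited by CRISPR/Cas9 with a guide in exon 1 of SNAI2 (the gene for SLUG) and expanded from single-cell colonies, cells with a scrambled siRNA (Csi), and cells with siRNAs against SMAD2, SMAD3 and SMAD4 (siSMAD2/3/4). No MDA-MB-231 group received TGFβ.

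BCL2 family proteins decide whether the outer membrane of mitochondria is opened, the step that commits a cell to intrinsic apoptosis. The survival proteins hold the effectors BAX and BAK1 in check, and the BH3-only proteins bind the survival proteins, some of them the effectors too, and so release that check. TGFβ is known to restrain growth and induce apoptosis in many epithelial cells, in part through BCL2L11 and BMF, and several BH3-only genes are targets of p53, FOXO factors or the stress response. RNA levels do not report protein, which for MCL1 and PMAIP1 in particular turns over rapidly.

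Levels are given as CPM, counts scaled to library size after TMM scaling over the 24 libraries. Between genes they are compared only as CPM per kilobase of exon. A gene was called where the adjusted p of edgeR's quasi-likelihood test was under 0.05, and it is a DEG where the absolute log2 fold-change was also above 1. Standard errors (SE) were derived from that test, as the absolute log2 fold-change divided by the square root of its F statistic. Between 14124688 and 38406952 read pairs per library were counted on genes. In bulk RNA, fewer cells expressing a gene and less RNA per cell cannot be told apart.

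Before the results, 3 properties of the libraries need stating. In the libraries labelled SLUG KO, the RNA of the targeted gene SNAI2 was 63.4, 57.3 and 64.6 CPM, above the 30.1, 20.0 and 33.1 CPM of the WT libraries (log2 fold-change 1.11 ± 0.21, SE; adjusted p = 0.0399). That call was lost under a filter of 10 or more counts per library (adjusted p = 0.0546) and with the replicate number as a block (0.108). It was also lost without any single library other than WT replicate 2 (0.0628 to 0.221). The log2 fold-changes of these fits were 1.09 to 1.25. Gene counts do not read the edited bases, so they cannot show a small insertion or deletion, and per the study's methods the knock-out was checked by ddPCR and immunoblotting. WT replicate 2 stood apart: its log CPM correlated with the other WT libraries across genes at r = 0.926 and 0.920, against 0.992 between those 2 and at least 0.990 in every other group, so the tests against WT are given with and without it. The Csi and siSMAD2/3/4 libraries carry another batch label than the other 18. The siRNAs lowered their targets: SMAD2 from 93.4 to 24.6 CPM, SMAD3 from 275 to 169.7 CPM and SMAD4 from 57.1 to 17.2 CPM (adjusted p = 2.65e-22, 9.70e-15 and 1.50e-19). HRAS was 40.7 CPM in MI Ctrl and 221 CPM in MII Ctrl. Of 6 basal epithelial markers (KRT5, KRT14, KRT6A, TP63, CDH1 and EPCAM), none was under 0.1 CPM throughout a sphere group, though TP63 was 0.622 CPM in MII Ctrl. Levels of these markers moved with TGFβ and between the lines, and are given beside those comparisons. VIM, ZEB1, SPARC and AXL were listed as markers of MDA-MB-231. Their summed level was 1979 to 2514 CPM in the MDA-MB-231 libraries and 10.6 to 39.7 CPM in the spheres. That sum was mostly VIM and AXL (770 and 1413 CPM in WT). SPARC did not set the line apart, at 0.569 CPM in WT, 0.979 CPM in SLUG KO and 4.21 CPM in Csi, against 3.21 CPM in MI TGFβ. The immune markers PTPRC, CD3E and CD68 summed to at most 0.767 CPM in any library, with PTPRC reaching 0.603 CPM in Csi and CD3E under 0.1 CPM throughout.

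The promoter windows below, from 250 bases before to 50 bases after the RefSeq start (GRCh38.p14, 5′ to 3′ on the gene's strand), belong to 4 BH3-only genes whose level was called in both lines under TGFβ. Of the 10 members, 8 have a window in the RefSeq table, and for genes with several the first listed was used. Capitals mark matches on either strand to CAGAC (the SMAD box) or TGANTCA (the AP-1 motif), and CAGGTG, an E-box that SLUG can bind, was searched as well.
PMAIP1: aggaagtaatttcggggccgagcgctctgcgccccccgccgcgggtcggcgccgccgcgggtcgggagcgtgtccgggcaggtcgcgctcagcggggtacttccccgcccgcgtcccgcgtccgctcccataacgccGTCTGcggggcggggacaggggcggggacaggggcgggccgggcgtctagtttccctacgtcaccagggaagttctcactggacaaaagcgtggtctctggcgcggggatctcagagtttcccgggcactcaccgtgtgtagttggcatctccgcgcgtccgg
BBC3: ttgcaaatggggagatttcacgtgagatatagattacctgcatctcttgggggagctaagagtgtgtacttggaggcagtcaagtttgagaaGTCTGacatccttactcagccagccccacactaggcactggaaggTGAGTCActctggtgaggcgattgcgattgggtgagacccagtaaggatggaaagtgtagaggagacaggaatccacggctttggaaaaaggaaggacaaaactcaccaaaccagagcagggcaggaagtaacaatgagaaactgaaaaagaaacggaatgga
BCL2L11: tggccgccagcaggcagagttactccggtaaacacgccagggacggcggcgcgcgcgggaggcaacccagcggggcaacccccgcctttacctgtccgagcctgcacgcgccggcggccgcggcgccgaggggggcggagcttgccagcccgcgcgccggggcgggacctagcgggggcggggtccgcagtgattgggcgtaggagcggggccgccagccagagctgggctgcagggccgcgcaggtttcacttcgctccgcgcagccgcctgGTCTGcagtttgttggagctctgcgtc
BMF: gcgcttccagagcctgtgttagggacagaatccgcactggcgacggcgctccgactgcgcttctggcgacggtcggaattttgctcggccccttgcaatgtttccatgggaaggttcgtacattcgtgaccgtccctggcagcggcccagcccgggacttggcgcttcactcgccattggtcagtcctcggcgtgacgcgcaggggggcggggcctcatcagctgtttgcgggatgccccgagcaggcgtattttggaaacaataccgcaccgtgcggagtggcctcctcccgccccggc
The PMAIP1 window is chr18:59899746-59900045 (plus strand), that of BBC3 chr19:47232618-47232917 (minus strand), that of BCL2L11 chr2:111120664-111120963 (plus strand) and that of BMF chr15:40108830-40109129 (minus strand). CAGAC or its reverse complement occurs once each in the windows of PMAIP1, BBC3 and BCL2L11 and not in that of BMF. Over all 27305 genes with a window, 45% hold CAGAC, 20.6% hold CAGGTG and 7.76% hold TGANTCA on either strand, and of the 8 members 4 hold CAGAC, 1 (BAX) holds CAGGTG and 1 (BBC3) holds TGANTCA. The motifs do not overlap one another in these windows. GC content was 71.3% for PMAIP1, 74.7% for BCL2L11, 65.0% for BMF and 48.0% for BBC3, against a median of 58.3% over all windows.

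Survival transcripts in the spheres were mostly MCL1, and in MDA-MB-231 they were divided between MCL1 and BCL2L1. MCL1, a short-lived survival protein, lies on chromosome 1 (150560895 to 150579738, GRCh38). Its level was 71.2 ± 0.801 CPM per kb in MI Ctrl (SD, n = 3), and it made up 85.7% ± 0.750 of the summed CPM per kb of the 4 survival genes. BCL2L1, which encodes BCL-XL, lies on chromosome 20 (31664452 to 31723989) and made up 12.7% ± 0.310 in MI Ctrl. In Csi the order was the other way round, with BCL2L1 at 59.7% ± 0.518 and MCL1 at 39.6% ± 0.550, and in siSMAD2/3/4 BCL2L1 held 66.8% ± 0.404. In WT the BCL2L1 share ran from 35.8% to 62.9%, the highest in replicate 2. Of the BCL2L1 exon bases, 41.3% are shared with ABALON, a non-coding RNA on the opposite strand, and reads there were left uncounted. With shared bases taken out of the gene lengths, the BCL2L1 share was 19.0% in MI Ctrl and 70.5% in Csi. In WT that put BCL2L1 (56.8%) above MCL1 (42.25%), against mean shares of 45.6% and 53.2% with full lengths. Without division by length, BCL2L1 and MCL1 held 49.6% and 48.7% in Csi. In SLUG KO they then held 39.9% and 57.1%, against 50.2% and 48.5% with full lengths.

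BCL2, the founding member (chromosome 18, 63123346 to 63320128), and BCL2A1, an NF-κB-regulated survival gene (chromosome 15, 79960892 to 79971196), were minor throughout. BCL2 held 0.232% of the survival CPM per kb in MI Ctrl and 1.25% in WT, and BCL2A1 held 1.34% in MI Ctrl. No BCL2A1 read was counted in any of the 6 WT and SLUG KO libraries.

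**Figure D1:**
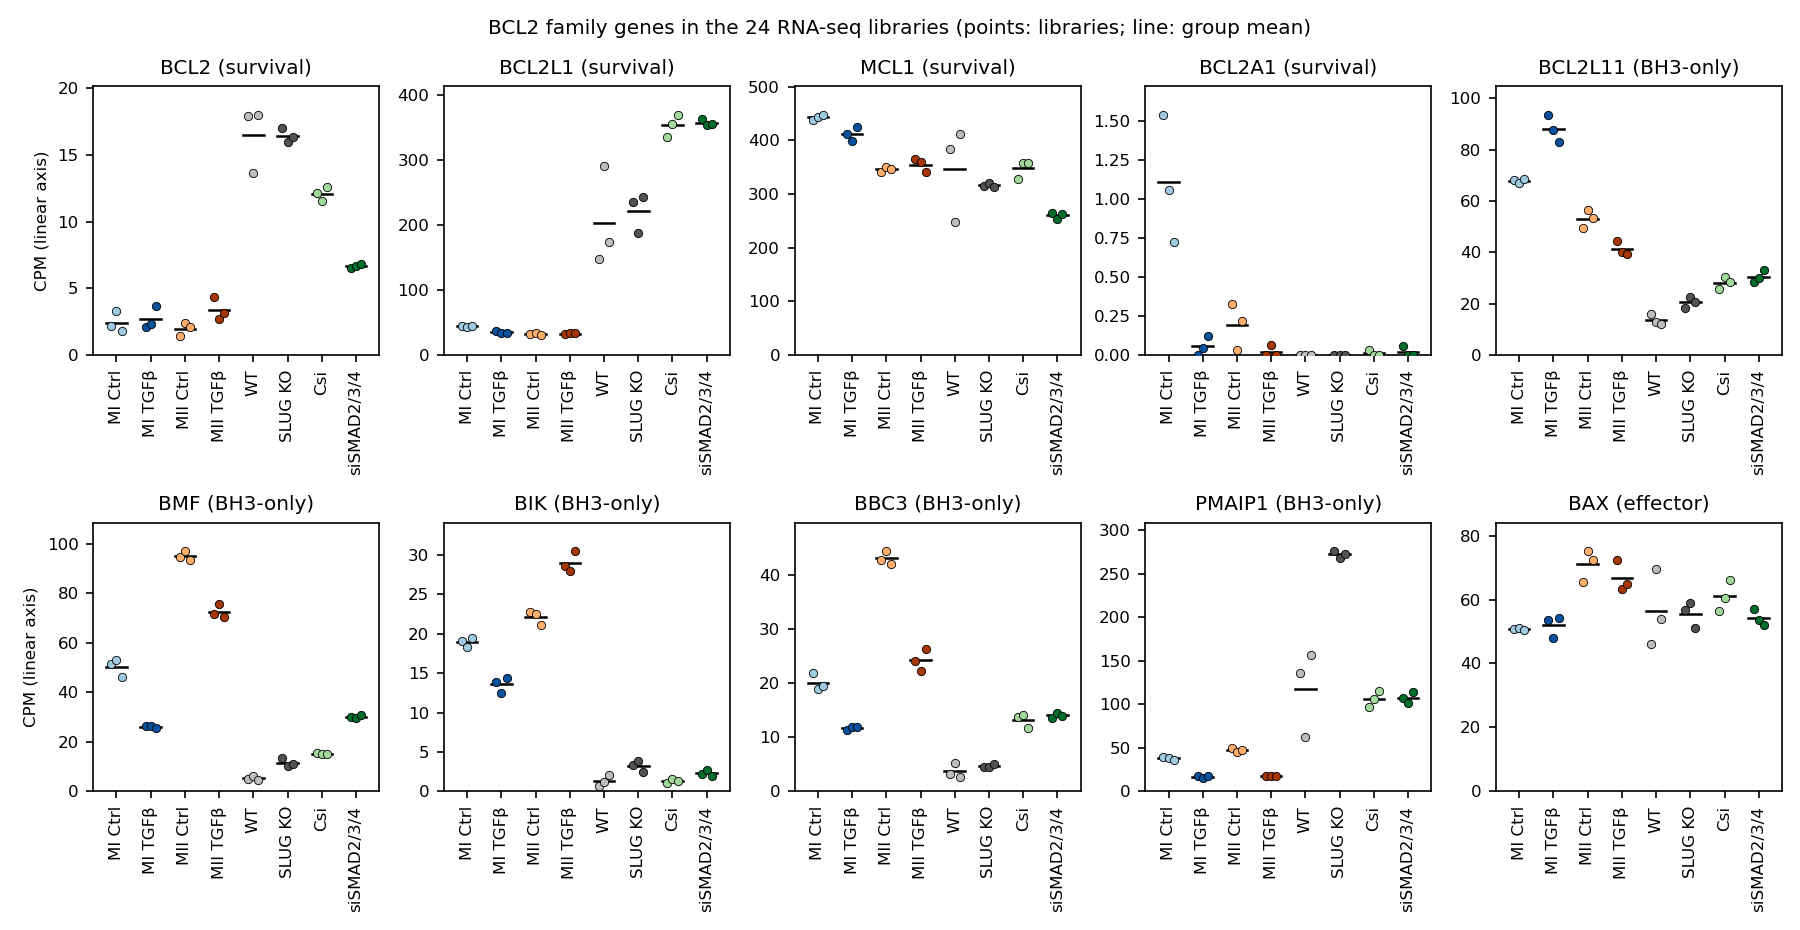
CPM (linear axes from 0, a scale for each gene) of the 10 BCL2 family genes in the 24 libraries; points are libraries and lines are means of 3. BCL2 and BCL2L1 are high in MDA-MB-231, BMF, BIK and BCL2L11 are high in the spheres, and the WT libraries are spread widely, for example from 62.2 CPM (replicate 2) to 156 CPM for PMAIP1.

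BH3-only transcripts were spread over all 5 genes in the spheres and dominated by PMAIP1 in MDA-MB-231. PMAIP1, which encodes NOXA, an antagonist mainly of MCL1, lies on chromosome 18 (59899996 to 59904305). It made up 27.7% ± 0.799 of the BH3-only CPM per kb in MI Ctrl (SD, n = 3) and 79.3% ± 1.64 in Csi. In WT its share was 82.7% to 92.7%, and in the libraries labelled SLUG KO 91.9% to 93.1%. BIK (chromosome 22, 43110750 to 43129712), a BH3-only protein found at the endoplasmic reticulum, held 31.6% ± 1.34 in MI Ctrl and 46.4% ± 0.928 in MII TGFβ, but 2.33% ± 0.315 in Csi.

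The 8 groups were also ordered by mean level for each gene. BMF, which encodes a BH3-only protein linked to loss of attachment (chromosome 15, 40087890 to 40108892), separated all groups: from the top MII Ctrl (94.9 CPM), MII TGFβ, MI Ctrl, siSMAD2/3/4, MI TGFβ, Csi, SLUG KO and WT (5.28 CPM), with no overlap between neighbours. BAX (chromosome 19, 48954815 to 48961798), which forms the pore, was the most even gene, with group means from 50.8 CPM in MI Ctrl to 71.0 CPM in MII Ctrl, a 1.40-fold range, and each group overlapped the next. Where WT sets an end of the range, leaving out its replicate 2 gave 9.13-fold for BCL2, 6.26-fold for BCL2L11, 20.2-fold for BMF and 14.3-fold for BBC3, and put the lowest BIK mean in Csi (21.4-fold) and the lowest BAX mean in WT (1.42-fold). The range was 1.70-fold for MCL1, 6.45-fold for BCL2L11, 8.40-fold for BCL2, 11.2-fold for BCL2L1, 11.4-fold for BBC3, 16.3-fold for PMAIP1, 17.97-fold for BMF and 22.4-fold for BIK. For BCL2 the 4 sphere groups overlapped their neighbours, as did WT and SLUG KO, and for PMAIP1 the 2 TGFβ groups overlapped at the low end. The Csi and siSMAD2/3/4 levels come from the other batch and are set beside the rest without a test.

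**Figure D2:**
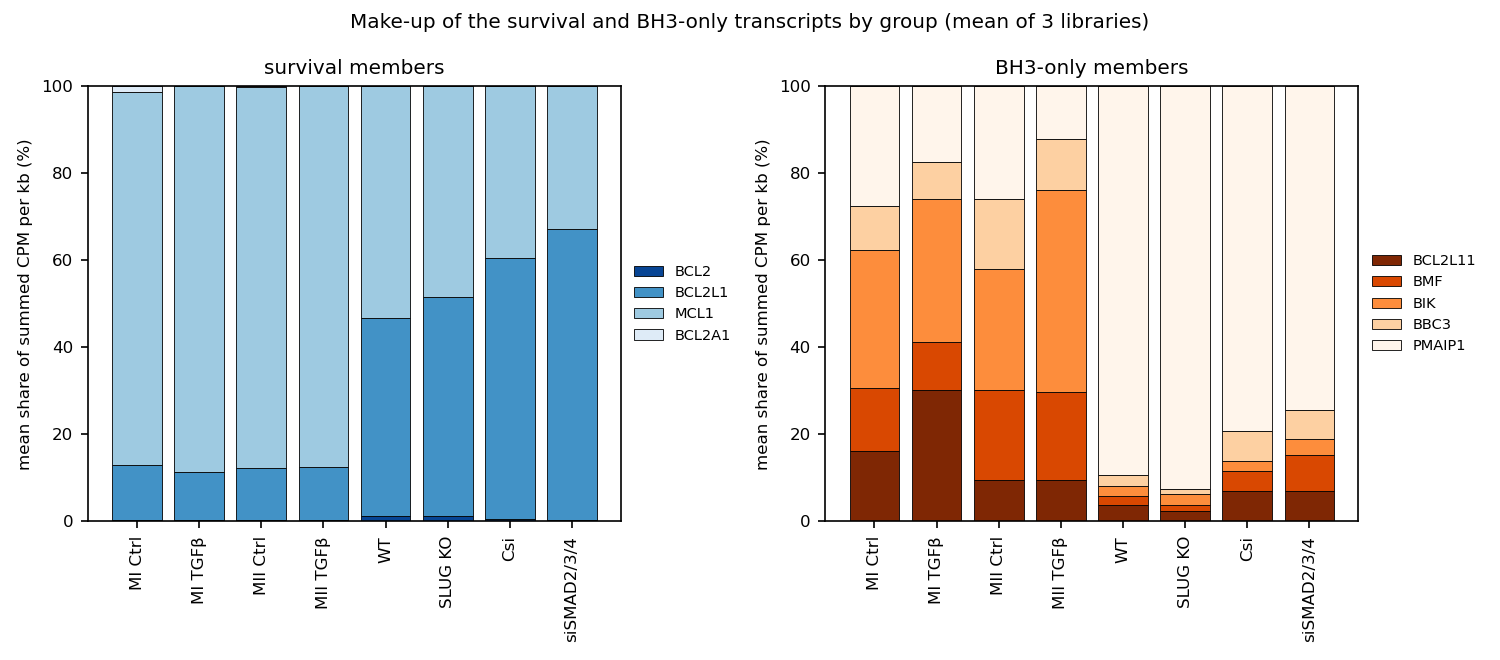
Mean share (%) of each gene in the summed CPM per kb of the 4 survival genes (left) and of the 5 BH3-only genes (right), by group, with 3 libraries each. MCL1 makes up 85.7% to 88.5% of the survival transcripts in the 4 sphere groups, and PMAIP1 makes up 74.3% to 92.5% of the BH3-only transcripts in the 4 MDA-MB-231 groups.

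In MI-spheres, TGFβ lowered the BH3-only genes PMAIP1, BMF, BBC3 and BIK and the survival genes BCL2L1 and MCL1, and raised BCL2L11. BCL2A1 passed the low-count filter only through MI Ctrl, here and in the other comparisons that hold MI Ctrl, so it is left out of the counts of members and its levels are given as counts. Of the other 9 members, 1 was called higher and 6 were called lower, where 56.0% of the 16863 genes tested were called (28.7% higher and 27.4% lower). The groups did not overlap for 7 of the 9, against 60.6% of all genes tested. The median log2 fold-change was -0.37 over the 9 members and -0.016 over all genes tested. PMAIP1 was a DEG, against 13.6% of all genes tested. Basal epithelial markers rose alongside: 5 of 6 were called higher, KRT5 from 106.5 to 569.7 CPM among them. Their summed level was 786 to 808 CPM without and 1560 to 1693 CPM with TGFβ. Of the endothelial markers, CDH5 went from 22.2 to 2.12 CPM, while PECAM1 was not called (9.78 and 10.1 CPM, adjusted p = 0.974). The part of the marker changes in the members' values was not tested.

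PMAIP1 was 40.0, 38.3 and 36.2 CPM in MI Ctrl and 17.5, 15.2 and 17.4 CPM in MI TGFβ. The groups lay apart, and the log2 fold-change was -1.23 ± 0.08 (SE, adjusted p = 1.82e-11). BMF was 51.3, 53.1 and 46.0 CPM without and 26.6, 26.4 and 25.6 CPM with TGFβ (log2 fold-change -0.97 ± 0.07, adjusted p = 2.98e-10). BBC3, which encodes PUMA, a p53 target that binds all survival proteins (chromosome 19, 47220822 to 47232766), went from 22.0, 18.9 and 19.5 CPM to 11.4, 11.97 and 11.9 CPM. Its log2 fold-change was -0.81 ± 0.09 (adjusted p = 1.86e-07), and every stimulated library lay below every unstimulated one. BIK was 19.0, 18.3 and 19.5 CPM in MI Ctrl and 13.9, 12.4 and 14.4 CPM in MI TGFβ, again without overlap (log2 fold-change -0.51 ± 0.09, adjusted p = 3.72e-05).

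BCL2L11, which encodes BIM, an activator of BAX and a binder of all survival proteins (chromosome 2, 111119378 to 111168445), moved the other way. It was 68.3, 67.0 and 68.3 CPM in MI Ctrl and 93.5, 87.7 and 82.8 CPM in MI TGFβ, so that the lowest stimulated library exceeded each unstimulated one (log2 fold-change 0.34 ± 0.06, adjusted p = 4.64e-05). Of its exon bases 13.8% are shared with other genes, among them 727 with MIR4435-2HG on the opposite strand. The BCL2L11 share of BH3-only CPM per kb was 16.2% ± 0.392 without and 30.3% ± 1.77 with TGFβ (SD, n = 3), while the summed BH3-only level was 63.1 ± 1.55 and 43.7 ± 1.71 CPM per kb.

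Among survival genes, BCL2A1 showed the widest gap in MI-spheres, at very low counts. It had 40, 22 and 14 counts in MI Ctrl and 0, 1 and 3 counts in MI TGFβ, a ratio of scaled levels of 19.1 (95% interval from 7.17 to 72.0, for counting error only). BCL2L1 went from 45.3, 43.2 and 44.2 CPM to 36.9, 34.5 and 33.9 CPM (log2 fold-change -0.37 ± 0.07, adjusted p = 6.73e-05). MCL1 was 438, 443 and 448 CPM without and 412, 398 and 426 CPM under stimulation, and was called lower (log2 fold-change -0.14 ± 0.05, adjusted p = 0.0217). That call did not hold without the low-count filter (adjusted p = 0.0695) or without MI TGFβ replicate 1 (0.132), MI Ctrl replicate 2 (0.0765) or MI Ctrl replicate 3 (0.0766). BCL2 (2.43 CPM without and 2.71 CPM with TGFβ, adjusted p = 0.640) and BAX (50.8 and 51.9 CPM, adjusted p = 0.985) were not called.

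In MII-spheres, TGFβ lowered PMAIP1, BBC3, BMF and BCL2L11 and raised BIK and BCL2. Of the 9 members tested, 2 were called higher and 4 lower, where 57.6% of the 16396 genes tested were called (29.9% higher and 27.6% lower). The groups did not overlap for 6 of the 9, against 61.3% of all genes tested. The median log2 fold-change was -0.12 over the 9 members and -0.018 over all genes tested. BCL2A1, with 10 counts summed over MII Ctrl and 1 over MII TGFβ, was too low to be tested (ratio 7.13, 95% interval from 1.01 to 309). All 6 basal epithelial markers were called higher here (summed level 759.5 to 811.7 CPM without and 1261 to 1282 CPM with TGFβ), KRT5 going from 18.9 to 200.4 CPM, and their part in the members' values was not tested.

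PMAIP1 went from 49.7, 45.8 and 47.6 CPM in MII Ctrl to 17.2, 17.3 and 18.1 CPM in MII TGFβ (log2 fold-change -1.47 ± 0.07, adjusted p = 2.90e-24). It was the single DEG among the members, where 10.6% of all genes tested were DEGs. BBC3 was 42.8, 44.5 and 42.2 CPM without and 24.2, 22.3 and 26.4 CPM with TGFβ (log2 fold-change -0.86 ± 0.07, adjusted p = 9.43e-16). BMF fell from 94.5, 96.8 and 93.3 CPM to 71.8, 75.6 and 70.4 CPM (log2 fold-change -0.41 ± 0.05, adjusted p = 3.51e-10). In each of these 3 genes all stimulated libraries lay under all unstimulated ones.

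BCL2L11 was 49.4, 56.5 and 53.5 CPM in MII Ctrl and 44.4, 40.1 and 39.4 CPM in MII TGFβ (log2 fold-change -0.40 ± 0.06, adjusted p = 2.67e-07). BIK rose from 22.8, 22.5 and 21.1 CPM to 28.6, 27.9 and 30.4 CPM (log2 fold-change 0.36 ± 0.07, adjusted p = 3.15e-05). Neither gene's groups overlapped, and each moved against its direction in MI-spheres. BCL2 was 1.39, 2.42 and 2.09 CPM without and 4.37, 2.72 and 3.14 CPM with TGFβ, from 21 to 71 counts per library (log2 fold-change 0.72 ± 0.23, adjusted p = 0.00672). Without MII TGFβ replicate 1, which held the highest value, BCL2 was no longer called (log2 fold-change 0.51, adjusted p = 0.107). MCL1 (346 and 355 CPM, adjusted p = 0.826), BCL2L1 (32.0 and 33.0 CPM, adjusted p = 0.890) and BAX (71.0 and 66.8 CPM, adjusted p = 0.0630) were not called. BAX was called lower under a filter of 10 or more counts per library (log2 fold-change -0.16, adjusted p = 0.0140), without MII TGFβ replicate 1 (0.0186) and without MII Ctrl replicate 1 (0.0225).

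**Figure D3:**
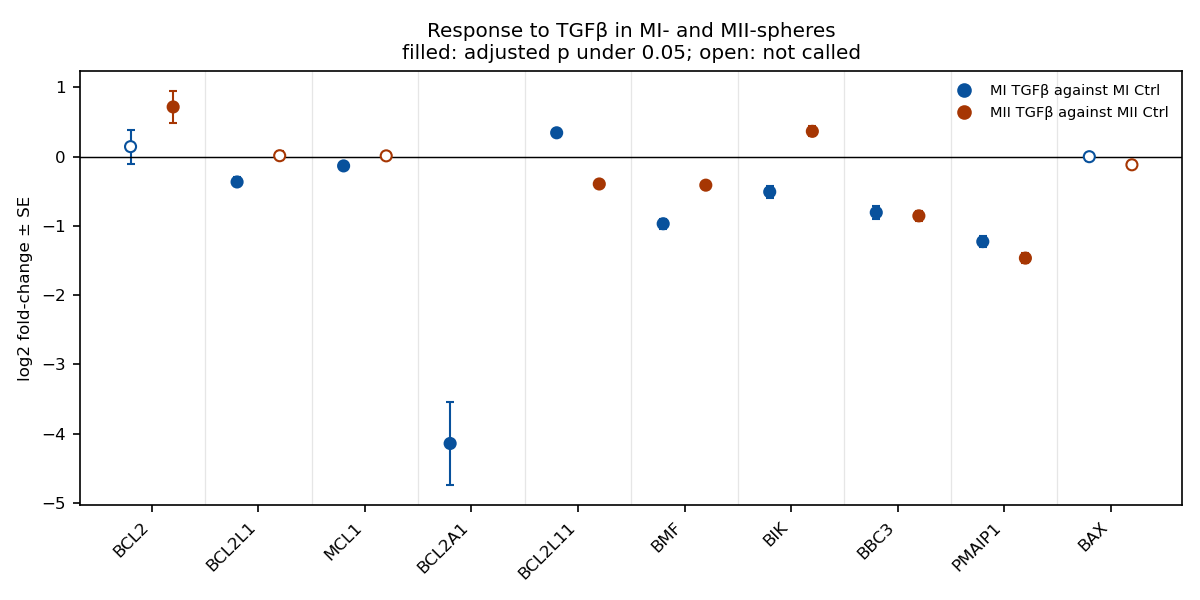
Log2 fold-change with TGFβ (± SE derived from the edgeR test) of the 10 genes in MI- and MII-spheres, 3 libraries per group. Filled points were called at an adjusted p under 0.05. PMAIP1, BBC3 and BMF lie below 0 in both lines, and BCL2L11 and BIK lie on opposite sides. BCL2A1 is plotted for MI-spheres alone since it was not tested in MII-spheres. It passed the low-count filter only through MI Ctrl, so its filled point is not counted as a call.

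To ask whether the responses differed between the lines, the interaction of line and TGFβ was tested over the 12 sphere libraries. It was called for 4 of the 9 members other than BCL2A1, where 22.4% of the 18591 genes tested were called (12.6% with a higher and 9.75% with a lower response in MII-spheres). The response of BCL2L11 was lower in MII- than in MI-spheres by 0.73 ± 0.09 on the log2 scale (interaction -0.73, adjusted p = 1.79e-08). For BIK the response was higher in MII-spheres (0.88 ± 0.11, adjusted p = 6.06e-08), as it was for BMF (0.57 ± 0.09, adjusted p = 1.99e-06), where the fall was smaller. The BCL2L1 response was also higher in MII-spheres (0.39 ± 0.09, adjusted p = 0.00152). For PMAIP1 (-0.23 ± 0.11, adjusted p = 0.126) and BBC3 (-0.04 ± 0.11, adjusted p = 0.867) a difference between the lines was not detected, although PMAIP1 was called without MI TGFβ replicate 2 (-0.32, adjusted p = 0.0293; range over its alternatives 0.0293 to 0.347). That of MCL1 lay near the threshold (0.16 ± 0.06, adjusted p = 0.0581, and from 0.0347 to 0.364 over its alternatives).

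The surrounding lists of the death machinery are read against the 56.0% of all genes called in MI- and 57.6% in MII-spheres. Among 12 further BCL2 family genes tested in MI-spheres, 4 were called higher and 2 lower (median log2 fold-change 0.07), and among 11 in MII-spheres 5 were called higher and none lower (median 0.16, by edgeR). BNIP3, a mitophagy receptor, rose from 29.4 to 115 CPM in MI- and from 12.3 to 41.9 CPM in MII-spheres (adjusted p = 1.14e-14 and 1.72e-25). Its relative BNIP3L rose from 130.4 to 281 CPM in MI-spheres and was also called higher in MII-spheres (149.6 to 202.6 CPM). BAK1, the other pore-forming effector, was called higher in both lines (log2 fold-change 0.18 ± 0.06 in MI- and 0.38 ± 0.07 in MII-spheres, adjusted p = 0.0122 and 3.82e-06).

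Of 9 caspase and apoptosome genes, 4 were called higher and 3 lower in MI-spheres, and 6 higher and 2 lower in MII-spheres. CASP2, an initiator caspase, fell from 29.1 to 14.2 CPM in MI-spheres (adjusted p = 1.94e-09). Of 7 tested inhibitors of apoptosis and their antagonists, 1 was called higher and 2 lower in MI-spheres and 2 higher and 2 lower in MII-spheres. BIRC3, which encodes cIAP2, fell from 86.3 to 15.3 CPM in MI-spheres, and BIRC5, which encodes survivin and is expressed in dividing cells, rose from 3.91 to 13.9 CPM in MII-spheres. Of 10 tested death receptor and adaptor genes, 4 were called higher and 3 lower in MI-spheres, and 6 higher and 1 lower in MII-spheres. The ligand gene TNFSF10 (TRAIL) fell from 226 to 94.1 CPM in MI-spheres. Of 12 tested transcription factors known to regulate BCL2 family genes, 4 were called higher in each line, with 6 lower in MI- and 7 lower in MII-spheres. E2F1 rose from 5.41 to 16.9 CPM and TP63 from 0.622 to 2.65 CPM in MII-spheres.

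Without stimulation, MII-spheres had more BBC3, BMF, BAX, PMAIP1 and BIK RNA than MI-spheres, and less BCL2L1, MCL1 and BCL2L11. Of the 9 members other than BCL2A1, 5 were called higher and 3 lower, where 64.2% of the 17862 genes tested were called (31.7% higher and 32.5% lower). BBC3 was a DEG, against 20.1% of all genes. The groups did not overlap for 8 of the 9, against 67.3% of all genes tested. The median was 0.23 over the 9 members and 0.017 over all genes. The libraries of the unstimulated groups also enter the TGFβ comparisons, so these are not independent. Markers of cell state differed too: of the 6 basal epithelial markers 3 were called higher and 3 lower in MII Ctrl (KRT6A was 52.2 and 1.76 CPM). Of 3 luminal markers 2 were called higher (KRT8 was 631 and 1370 CPM), and ESR1 was called lower (7.65 and 3.20 CPM). The 2 endothelial markers went opposite ways. PECAM1 was 9.78 CPM in MI Ctrl and 102.6 to 108.2 CPM in MII Ctrl, and CDH5 was 22.2 and 10.8 CPM. The part of these markers in the members' values was not tested.

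BBC3 was 22.0, 18.9 and 19.5 CPM in MI Ctrl and 42.8, 44.5 and 42.2 CPM in MII Ctrl (log2 fold-change 1.10 ± 0.07, adjusted p = 1.78e-21). BMF differed by 0.92 ± 0.05 (adjusted p = 6.96e-23), from 46.0 to 53.1 CPM in MI Ctrl against 93.3 to 96.8 CPM in MII Ctrl. BAX ranged from 50.5 to 51.1 CPM in MI Ctrl and from 65.6 to 75.1 CPM in MII Ctrl (log2 fold-change 0.49 ± 0.05, adjusted p = 5.65e-12). PMAIP1 (0.32 ± 0.06, adjusted p = 5.54e-06) and BIK (0.23 ± 0.07, adjusted p = 0.00622) were higher by less, and BIK was not called without the low-count filter (adjusted p = 0.0556). As a class, the BH3-only genes summed to 63.1 ± 1.55 CPM per kb in MI Ctrl and 84.0 ± 1.48 CPM per kb in MII Ctrl (SD, n = 3), without overlap.

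BCL2L1 (44.2 against 32.0 CPM, log2 fold-change -0.46 ± 0.06, adjusted p = 1.84e-09), MCL1 (443 against 346 CPM, -0.35 ± 0.03, adjusted p = 2.96e-13) and BCL2L11 (67.9 against 53.1 CPM, -0.34 ± 0.05, adjusted p = 8.67e-08) were lower in MII Ctrl. The survival genes summed to 83.0 ± 0.294 CPM per kb in MI Ctrl and 63.6 ± 0.997 CPM per kb in MII Ctrl. BCL2A1 had 76 counts summed over MI Ctrl and 10 over MII Ctrl (ratio 7.21, 95% interval from 3.71 to 15.6). BCL2 was not called (2.43 and 1.97 CPM, adjusted p = 0.363).

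The lists around the members are read against 64.2% of all genes called between MII Ctrl and MI Ctrl (31.7% higher and 32.5% lower). Of 9 caspase and apoptosome genes, 6 were called lower in MII Ctrl and 1 higher (edgeR). Of 7 inhibitors of apoptosis and antagonists, 6 were called lower and 0 higher. CASP10 was 18.3 CPM in MI Ctrl and 6.43 CPM in MII Ctrl, BIRC3 was 86.3 and 25.1 CPM, and BIRC5 was 15.2 and 3.91 CPM. Of 11 further BCL2 family genes tested, 3 were called higher and 7 lower. HRK, a BH3-only gene of neurons, was 19.0 and 7.89 CPM, BNIP3 29.4 and 12.3 CPM, and BCL2L14 0.701 and 2.94 CPM. BAK1 was called lower (59.1 and 30.5 CPM, log2 fold-change -0.95 ± 0.06, adjusted p = 9.95e-21), while BAX was called higher. Of 10 tested death receptor and adaptor genes, 4 were called higher, among them the decoy receptor TNFRSF10D (54.6 and 110.1 CPM), and 3 lower, among them TNFSF10 (226 and 66.6 CPM). Of 12 tested transcription factors, 4 were called higher and 7 lower, with TP63 and MYC (168 and 67.2 CPM) leading by adjusted p.

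Against MI Ctrl, the WT cells of MDA-MB-231 had more BCL2, BCL2L1 and PMAIP1 RNA and much less BIK, BMF, BBC3 and BCL2L11. The line and the mode of culture, 2D against 3D, change together here and cannot be told apart. Of the 9 members other than BCL2A1, 3 were called higher and 4 lower, and all 7 were DEGs, where 54.0% of the 18732 genes tested were called (28.1% higher and 25.9% lower) and 44.5% were DEGs. The groups did not overlap for 8 of the 9, against 66.9% of all genes tested. The median was -0.33 over the 9 members and 0.059 over all genes.

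BCL2 was 2.20, 3.27 and 1.81 CPM in MI Ctrl and 17.9, 13.6 and 18.01 CPM in WT (log2 fold-change 2.79 ± 0.28, adjusted p = 0.000159). BCL2L1 ranged from 43.2 to 45.3 CPM in MI Ctrl and was 147, 291 and 174 CPM in WT (2.24 ± 0.29, adjusted p = 0.000548). PMAIP1, at 36.2 to 40.0 CPM in MI Ctrl, was 136, 62.2 and 156 CPM in WT (1.65 ± 0.33, adjusted p = 0.00428). WT replicate 2 held the highest BCL2L1 and the lowest BCL2 and PMAIP1 value of its group.

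BIK was 18.3 to 19.5 CPM in MI Ctrl and 0.674, 1.15 and 2.05 CPM in WT (log2 fold-change -3.85 ± 0.40, adjusted p = 0.000182). BMF was lower by 3.22 ± 0.22 on the log2 scale (log2 fold-change -3.22, adjusted p = 2.72e-05), with 4.94, 6.43 and 4.46 CPM in WT. BBC3 (3.26, 5.28 and 2.77 CPM in WT, log2 fold-change -2.39 ± 0.29, adjusted p = 0.000410) and BCL2L11 (16.1, 12.8 and 12.01 CPM, -2.29 ± 0.18, adjusted p = 4.81e-05) lay below MI Ctrl in every library. BCL2A1, with no count in WT, was at least 29.6-fold higher in MI Ctrl, taking 3 counts over the group as the floor. MCL1 (443 against 348 CPM, adjusted p = 0.231) and BAX (50.8 against 56.5 CPM, adjusted p = 0.476) were not called. Without WT replicate 2, when 74.9% of all genes tested were called, MCL1 was called as well (log2 fold-change -0.17, adjusted p = 0.0355), and the 7 changes kept their direction and their call.

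In the surrounding lists, 5 of 12 further BCL2 family genes, 5 of 9 caspase and apoptosome genes, 2 of 7 inhibitors and antagonists, 6 of 10 death receptor and adaptor genes and 11 of 13 transcription factors were called in either direction, against 54.0% of all genes. BIRC5 was 15.2 CPM in MI Ctrl and 165 CPM in WT, and BNIP3 was 29.4 and 219 CPM. BCL2L12 was 5.98 and 21.7 CPM, while BID, whose cleaved product links death receptors to mitochondria, was 92.9 and 29.8 CPM and HRK was 19.0 and 0.0132 CPM. CASP9 (25.5 and 10.0 CPM), FAS (23.0 and 5.62 CPM) and TNFSF10 (226 and 77.7 CPM) were lower in WT. FADD was called higher (5.42 and 10.9 CPM, adjusted p = 0.0446), and its adjusted p rose above 0.05 without WT replicate 3 and without each MI Ctrl replicate (0.0559 to 0.134), while without WT replicate 2 its log2 fold-change was 0.51 instead of 1.03. Without WT replicate 2 the same lists had 7, 5, 6, 7 and 13 genes called, against 74.9% of all genes, and each gene named here kept its direction and call. Of the transcription factors named by the rule, E2F1 and SNAI2 were higher in WT, and TP63 and FOXO1 lower.

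In the libraries labelled SLUG KO, no member was called against WT by edgeR, where 3.33% of the 17428 genes tested were called (1.45% higher and 1.89% lower). Of the 9 members tested, 4 had an unadjusted p under 0.05 (BMF 0.00211, PMAIP1 0.00735, BIK 0.0191 and BCL2L11 0.0302), against 19.1% of all genes tested, and DESeq2 called 2, PMAIP1 and BMF, against 8.21% of all genes. SNAI2 RNA was higher, not lower, in these libraries, so the direction below is that of the label. The median was 0.27 over the 9 members and -0.052 over all genes tested.

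PMAIP1 was 136, 62.2 and 156 CPM in WT and 276, 269 and 273 CPM in the libraries labelled SLUG KO (log2 fold-change 1.16 ± 0.32, adjusted p = 0.114). BMF was 4.94, 6.43 and 4.46 CPM in WT and 13.5, 10.3 and 11.0 CPM in those labelled SLUG KO (1.08 ± 0.23, adjusted p = 0.0580). BIK was 0.674, 1.15 and 2.05 CPM and 3.29, 3.85 and 2.41 CPM (1.26 ± 0.42, adjusted p = 0.175), and BCL2L11 was 16.1, 12.8 and 12.01 CPM and 18.4, 22.6 and 20.6 CPM (0.54 ± 0.20, adjusted p = 0.212). In these 4 BH3-only genes the groups did not overlap, although none was called. Groups did not overlap for 31.3% of all genes tested. BBC3, BCL2, BCL2L1, MCL1 and BAX overlapped between the groups (adjusted p from 0.651 to 0.923).

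Leaving out WT replicate 2 changed this comparison. With 2 WT libraries, 6 members were called higher and 1 lower, where 31.2% of all genes tested were called. PMAIP1 (log2 fold-change 0.88, adjusted p = 2.54e-06), BMF (1.28, adjusted p = 1.68e-05), BIK (1.21, adjusted p = 0.0167), BBC3 (0.63, adjusted p = 0.0210), BCL2L11 (0.52, adjusted p = 0.00970) and BCL2L1 (0.44, adjusted p = 0.00509) were higher. MCL1 was lower (log2 fold-change -0.35, adjusted p = 0.00537). SNAI2 stayed higher (0.94, adjusted p = 2.54e-06). Of the surrounding lists, SNAI2 itself, one of 13 transcription factors, was called with all libraries, and no gene of the caspase, inhibitor, death receptor or further BCL2 family lists was called (edgeR). Without WT replicate 2, 4 of 10 further BCL2 family genes, 5 of 9 caspase and apoptosome genes, 2 of 7 inhibitors and antagonists, 7 of 11 death receptor and adaptor genes and 7 of 13 transcription factors were called.

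With siRNAs against SMAD2, SMAD3 and SMAD4, BMF and BIK were higher and BCL2, MCL1 and BAX lower than with Csi. Of the 9 members tested, 2 were called higher and 3 lower, where 36.0% of the 17696 genes tested were called (16.3% higher and 19.7% lower). None was a DEG (1.90% of all genes tested were). The median was 0.023 over the members and 0.004 over all genes.

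BMF was 15.4, 15.2 and 15.3 CPM in Csi and 29.9, 29.5 and 30.8 CPM in siSMAD2/3/4 (log2 fold-change 0.98 ± 0.07, adjusted p = 7.11e-13). BIK was 1.13, 1.59 and 1.35 CPM in Csi and 2.25, 2.69 and 2.01 CPM in siSMAD2/3/4 (0.77 ± 0.22, adjusted p = 0.00597). BCL2 was 12.1, 11.5 and 12.6 CPM in Csi and 6.52, 6.68 and 6.84 CPM in siSMAD2/3/4 (-0.85 ± 0.10, adjusted p = 1.81e-08). MCL1 went from 328, 359 and 357 CPM to 265, 253 and 263 CPM (-0.42 ± 0.04, adjusted p = 4.14e-10). The groups lay apart in these 4 genes, as they did for 44% of all genes tested.

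BAX overlapped between the groups (56.6, 60.5 and 66.2 CPM against 57.0, 53.7 and 52.1 CPM) and was called lower (log2 fold-change -0.17 ± 0.05, adjusted p = 0.0162). That call was lost without siSMAD2/3/4 replicate 2 (adjusted p = 0.0641), siSMAD2/3/4 replicate 3 (0.0850) or Csi replicate 3 (0.188). PMAIP1, the most abundant BH3-only transcript of these cells, was 105.8 CPM in Csi and 107.3 CPM in siSMAD2/3/4 (adjusted p = 0.775). BCL2L1 (354 and 358 CPM, adjusted p = 0.738), BBC3 (13.3 and 14.1 CPM, adjusted p = 0.463) and BCL2L11 (28.2 and 30.5 CPM, adjusted p = 0.217) were not called either. The count files name another flow cell for siSMAD2/3/4 replicates 1 and 2, where flow cell and siRNA cannot be told apart. A flow cell term leaves the siRNA effect to siSMAD2/3/4 replicate 3 alone, so its calls are not read. With it the log2 fold-change of BIK was 0.57. Over all alternatives, that one included, BMF ran from 0.966 to 1.014, BCL2 from -0.89 to -0.814, MCL1 from -0.438 to -0.39 and BAX from -0.224 to -0.107.

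**Figure D4:**
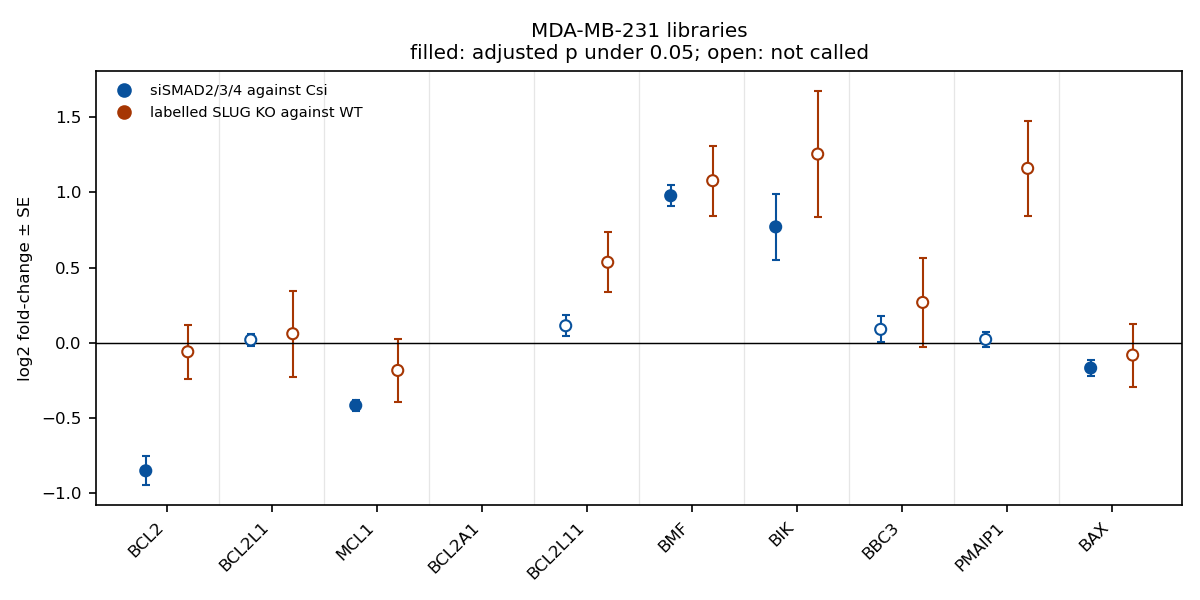
Log2 fold-change (± SE derived from the edgeR test) in MDA-MB-231 of siSMAD2/3/4 against Csi and of the libraries labelled SLUG KO against WT, 3 libraries per group. Filled points were called at an adjusted p under 0.05. BMF and BIK lie above 0 in both contrasts, called in siSMAD2/3/4 alone, and BCL2A1 has no point since it was not tested.

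Among the surrounding genes, read against 36.0% of all genes called, 3 of 10 tested further BCL2 family genes were called higher with the siRNAs and 3 lower, and BAK1 was among the higher (74.9 and 89.1 CPM, adjusted p = 0.000104). Of 9 caspase and apoptosome genes 3 were called lower and none higher, and of 7 inhibitors and antagonists 2 were called in each direction (edgeR). Of 11 tested death receptor and adaptor genes 3 were called higher and 4 lower. TP73, a relative of p53, was the single DEG of these lists, at 6.86 CPM in Csi and 2.88 CPM in siSMAD2/3/4 (log2 fold-change -1.25 ± 0.14, adjusted p = 1.30e-08).

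For each member, the protein-coding gene with the most similar pattern was sought among 12758 genes, as Pearson's r of log2 CPM over the 18 libraries of the first batch. These r values rest largely on the contrast of spheres and MDA-MB-231 and share libraries and scaling, so they describe and do not test. DPP9 was closest to BCL2L1 (r = 0.995), OSBPL7 to BBC3 (0.991), NADSYN1 to BMF (0.987), SLC39A11 to BIK (0.986), NUPR1 to BCL2L11 (0.985), MYBL1 to BCL2 (0.983) and ALAS1 to PMAIP1 (0.975). The closest genes to BCL2A1 (LMO7, 0.938), BAX (FPGS, 0.931) and MCL1 (UBR3, 0.930) were less alike. Within the 12 sphere libraries the same pairs gave r from 0.695 for BCL2 and MYBL1 to 0.981 for BBC3 and OSBPL7. Without WT replicate 2 the r values of these pairs over 17 libraries were 0.920 to 0.996. CLDN4, a tight junction gene, was second closest to both BMF and BIK (r = 0.986 for each).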

How the data were processed

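RNA-seq was analysed in 24 libraries, 3 in each of 8 groups. Per the labels and the study's methods, the authors used Trimmomatic for trimming and STAR for alignment against GRCh38.p13, and deposited raw counts per gene made by featureCounts (Subread 2.0.0, GENCODE v38, mapping quality of at least 30, no strand option, reads over several genes left out), so opposite-strand overlaps lose reads. Symbols were matched for 60463 of 60708 genes (99.6%). From the deposited counts, every pairwise contrast used only the 6 libraries of its groups, in edgeR 4.0.16 (R 4.3.3; filterByExpr, TMM, quasi-likelihood test, Benjamini-Hochberg over all genes tested), and the interaction on 12. Printed p-values set each change against the spread between 3 libraries a group, estimated with information shared over all genes tested. The steps were tested on simulated data: of 200 genes changed 4-fold, 140 (WT against MI Ctrl) to 194 (MI TGFβ) were recovered. Among the unchanged genes, 6 (siSMAD2/3/4) to 14 (MI TGFβ) were called. All other genes kept their mean in the simulation, while in the data 3.33% (SLUG KO) to 64.2% (MII Ctrl against MI Ctrl) were called. With more genes changed, recovery and false calls were not tested. Outside WT against MI Ctrl, the members other than BCL2A1 changed by less than 4-fold, and recovery of such smaller changes was not tested. Totals of 14124688 to 38406952 counts set the precision, and intervals cover counting error only. The members and lists were chosen with earlier results of these data known. Genes of the surrounding lists were named where they were DEGs, without overlap between groups, at most 2 per list, direction and comparison, by adjusted p; BAK1 was added after its values were seen, and some genes are not reported here. Alternatives were DESeq2 1.42.0, its size factors, other low-count filters, a replicate block, a flow cell term and each library left out. Gene lengths without shared bases, and lists, ranges and likeness without WT replicate 2, were added after the data were seen. The ATAC-seq samples were not analysed here.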

Additional observations from a re-analysis of the deposited data

Results flagged for a closer look

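For 4 of the 9 members other than BCL2A1, the TGFβ response differed between MII- and MI-spheres, by edgeR's interaction term over 12 libraries. That term was called for 22.4% of the 18591 genes tested. The difference (MII minus MI, log2) was 0.88 for BIK (adjusted p = 6.06e-08), 0.57 for BMF (1.99e-06), 0.39 for BCL2L1 (0.00152) and -0.73 for BCL2L11 (1.79e-08).

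Of the named genes in the surrounding lists, BIRC3 differed by 2.95 (adjusted p = 3.55e-23), E2F1 by 2.59 (1.02e-18), TNFSF10 by 1.67 (5.95e-17), TP63 by 1.44 (1.20e-05), BIRC5 by 1.26 (1.20e-08), CASP2 by 0.82 (9.07e-07) and BNIP3L by -0.66 (1.06e-09). With 3 libraries a group, no library was tested as an outlier within its group.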

How the results depend on the processing

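BCL2A1 is included in the counts of this section, although it passed the low-count filter only through MI Ctrl. The counts show how calls depend on the settings and are not read as results about the members. Over the alternatives that keep all libraries, 353 member values kept direction and side of the threshold, 7 became called, 3 lost their call and 6 changed sign, none of the last being called. The sign changes were BAX in MI-spheres with TGFβ (0.002 with DESeq2, 0.002 with its size factors and 0.021 with all 12 sphere libraries), BCL2L1 and MCL1 in MII-spheres with TGFβ (-0.027 and -0.028 with at least 10 counts in every library) and BCL2 in SLUG KO against WT (0.008 without a low-count filter). In SLUG KO against WT, 2 members were called with DESeq2 and 2 without a low-count filter. Over all genes that comparison had 581 calls, 1430 with DESeq2, 973 without a filter, 260 with at least 10 counts and 255 with the replicate block.

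Leaving out each library in turn gave 7 to 8 members called in MI-spheres with TGFβ, 6 to 7 in MII-spheres with TGFβ, 9 in MII against MI Ctrl, 4 to 5 for the interaction, 8 to 9 in WT against MI Ctrl, 0 to 7 in SLUG KO against WT (7 without WT replicate 2) and 4 to 5 with siSMAD2/3/4. With all libraries, 56.0%, 57.6%, 64.2%, 22.4%, 54.0%, 3.33% and 36.0% of all genes tested were called, in that order. Without WT replicate 2 the share was 74.9% in WT against MI Ctrl and 31.2% in SLUG KO against WT. The log2 fold-changes that changed sign in these fits ran from -0.131 to 0.415 for BCL2 and -0.015 to 0.042 for BAX in MI-spheres with TGFβ, from -0.012 to 0.051 for BCL2L1 and -0.004 to 0.052 for MCL1 in MII-spheres with TGFβ, from -0.443 to 0.000 for BCL2 in MII against MI Ctrl, from -0.744 to 2.622 for BCL2A1 for the interaction, from -0.042 to 0.296 for BAX in WT against MI Ctrl, from -0.153 to 0.021 for BCL2, -0.108 to 0.444 for BCL2L1 and -0.190 to 0.129 for BAX in SLUG KO against WT, and from -0.021 to 0.083 for PMAIP1 with siSMAD2/3/4.

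With the replicate number as a block, 8, 6, 9, 4, 8, 0 and 5 members were called (MI TGFβ, MII TGFβ, MII against MI Ctrl, interaction, WT, SLUG KO, siSMAD2/3/4), as without it. The shares of all genes called without the block are those given above. Deviations of same-numbered libraries correlated at r = -0.383 to 0.236, and the main fits assumed no pairing by number. With 3 libraries a group, these values cannot exclude a pairing. Without a low-count filter the median log2 fold-change of all genes shifted to -0.246 in MII-spheres with TGFβ, -0.176 for the interaction and -0.174 in SLUG KO against WT. Counts of BCL2A1 were low outside MI Ctrl, with at most 5 in a library of MII Ctrl and 2 in one of siSMAD2/3/4. The cause of the changes above was not tested.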
